A study of Mus musculus with 2 samples.

Results

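Genes of the BCL2 family and of mitochondrial cell death were examined in pancreatic islets of 2-day-old PERK wild-type and PERK knockout mice. The 10 genes were taken by symbol: the anti-apoptotic Bcl2, Bcl2l1 and Mcl1, the effectors Bax and Bak1, the BH3-only genes Bid, Bad and Bcl2l11, the mitophagy receptor gene Bnip3 and the cytochrome c gene Cycs. The array annotation named 26 probe sets for 9 of them, among 12394 genes with a named probe set in all. Bax had no probe set named in that annotation and was not analysed here. Of the other 9 genes, 8 were measured on both arrays and Bak1 was not. Each genotype is represented by 1 Affymetrix mouse 430A array hybridised with labelled RNA of islets isolated with collagenase P. The labels give mixed strains and both sexes for the wild-type islets, and neither item for the knockout islets. They do not say how the PERK gene, Eif2ak3, was disrupted, or whether islets of several pups were pooled.

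BCL2 family proteins decide whether the outer mitochondrial membrane is opened. BAX and BAK1 form the pores, BCL2, BCL-xL (from Bcl2l1) and MCL1 hold them back, and BH3-only proteins such as BID, BAD and BIM (from Bcl2l11) relieve that restraint or activate the effectors. Cytochrome c then leaves the mitochondrion and, with APAF1, activates caspase-9. PERK is an endoplasmic reticulum (ER) kinase that slows translation by phosphorylating eIF2 alpha when unfolded protein accumulates, and prolonged ER stress in beta cells can end in death through this mitochondrial route. The comparison asks how transcripts on both sides of the balance stood in neonatal islets without PERK.

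Every value below is a signal in arbitrary intensity units from a single array, so each ratio compares these 2 libraries and no p-value was computed. Low signals were replaced by a floor of 39.8, the 40th percentile over the 2 arrays. Genes that exceeded it in both libraries are called measured, and the brightest probe set stands for the gene. The error given for a log2 ratio (knockout over wild type) is the SD between probe sets of the same gene, from 0.29 among the dimmest genes to 0.20 among the brightest. It covers disagreement between probe sets on the same 2 arrays, real differences between splice forms included. It leaves out effects shared across an array, and animals, litters and RNA preparations. Across 8134 measured genes the median log2 ratio was 0.03.

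As a check of the labels, Eif2ak3 gave 117.7 in wild-type and 58.7 in knockout islets, 2.01-fold lower, on its only measured probe set. The sources used here do not say whether that probe set lies in the disrupted part of the gene. Islet hormone transcripts were bright on both arrays, with Ins2 at 5652 and 6163 and Gcg at 5662 and 5718. Acinar transcripts were bright too, with Cela3b at 7279 and 7119. The 13 acinar markers had a summed signal of 41077 and 43389, against 53990 and 55427 for the 14 endocrine markers. Acinar RNA was therefore present in both libraries, but its share cannot be read from these sums. In wild-type islets Ins2, Gcg, Sst and Pyy all lay between 5645 and 5662, and saturation of the brightest signals was not tested. Of 14 measured islet endocrine markers, 2 were at least 1.5-fold lower, Pcsk1 (919.8 to 332.6, 2.77-fold) and Slc2a2 (860.4 to 464.9, 1.85-fold), and 1 was higher, Ghrl (1.71-fold), all 3 named after their values were seen. The median log2 ratio was -0.06 over these 14 markers, 0.08 over 13 acinar, 0.01 over 7 duct, -0.15 over 11 endothelial and -0.02 over 11 mesenchymal markers. The 1 measured erythroid marker had -0.19. Leukocyte markers were higher in the knockout library. All 17 measured ones had a ratio above 0, 13 were at least 1.5-fold higher, the median was 0.72 (0.87 with 5 further markers at their bounds), and their summed signal was 2026 in wild-type and 5028 in knockout islets. No leukocyte marker was at the floor on both arrays. Markers of G2 and mitosis went the other way, with 13 of 13 below 0, a median of -1.27 (-1.02 with 3 markers at their bounds) and summed signals of 4271 and 1751. The ratio of 3' to 5' signal for beta-actin, a sign of RNA length, was 1.61 and 2.01, and that of Gapdh was 1.01 and 0.867. The part of these differences in the results below was not tested, and in whole islets fewer cells of a type and less RNA per cell cannot be told apart.

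Transcripts of the BCL2 family differed little between the libraries, with Bcl2l11 the exception on 1 of its probe sets. Of the 8 measured genes, 1 was at least 1.5-fold apart (Bcl2l11, higher in the knockout) and 0 were at least 2-fold apart. Among all measured genes, 7.14% were at least 1.5-fold apart, 4.19% higher and 2.95% lower, and 1.17% were at least 2-fold apart, 0.516% higher and 0.652% lower. A count of 1 in 8 therefore lies near the share over all genes. The other 7 measured genes had log2 ratios between -0.29 and 0.37.

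**Figure D1:**
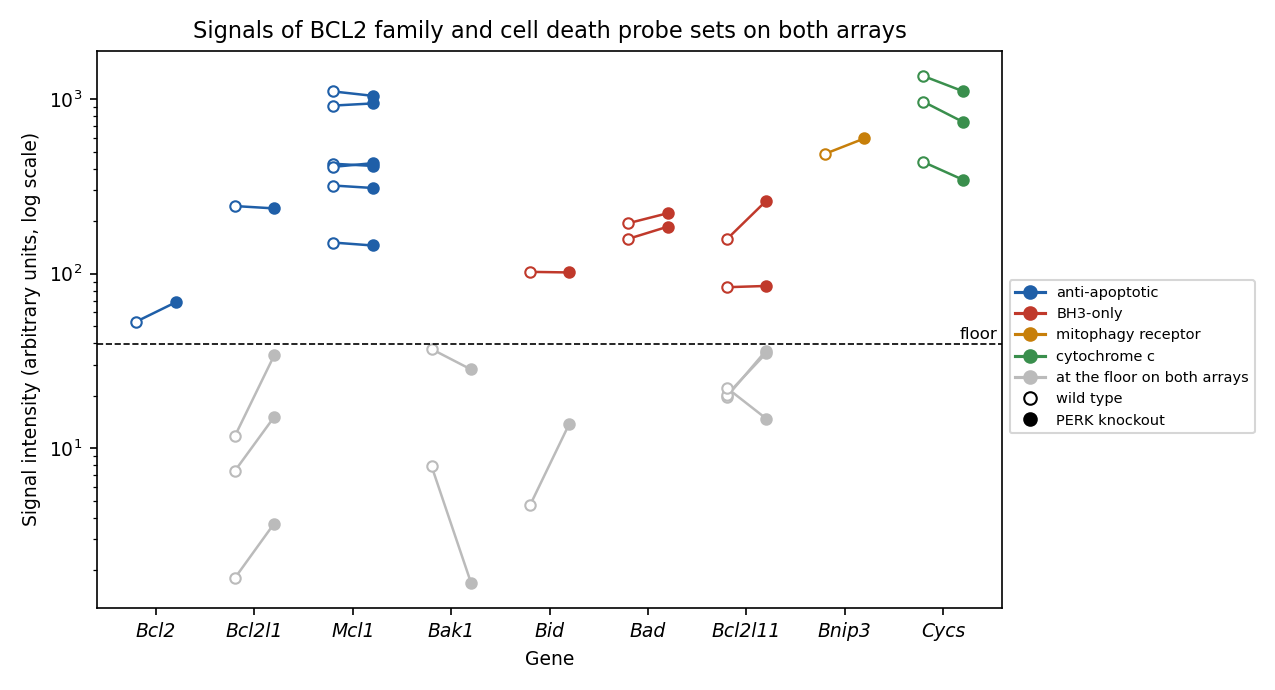
Signal intensity (log scale) of each of the 26 probe sets in the wild-type (open circles) and knockout (filled circles) library, joined by a line; grey marks the 9 probe sets at the floor on both arrays. The 3 Cycs lines all slope down, the Mcl1 lines are level, and of the Bcl2l11 lines above the floor 1 rises from 157.4 to 261.2 and the other is level.

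The anti-apoptotic genes were led by Mcl1, which encodes a short-lived protein that binds BAK1 and BIM. Its brightest probe set gave signals of 1108 (wild type) and 1046 (knockout), a log2 ratio of -0.08. The other 5 probe sets spanned wild-type signals from 150.9 to 919.5. All 6 were measured, and their ratios lay between -0.08 and 0.07, with a mean of -0.02 (SD 0.06). Mcl1 thus had nearly the same signal in both libraries on every probe set. Its spread of 0.15 between the lowest and highest ratio was small for the array: of 78 genes with at least 5 measured probe sets, 2 had a smaller one, and the median was 0.56.

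Bcl2l1, which encodes BCL-xL and its pro-apoptotic splice form BCL-xS, had signals of 244.3 and 236.8 on its 1 measured probe set, a log2 ratio of -0.04 against an error of 0.28. The libraries did not differ there beyond the error. The other 3 Bcl2l1 probe sets were below the floor on both arrays, at 11.7 and 34.0, at 7.40 and 15.1, and at 1.80 and 3.70, and give no fold. Splice forms cannot be compared from these values. Bcl2, the founding member of the family, was dim. Its single probe set gave 53.2 (wild type) and 68.6 (knockout), 1.29-fold higher (log2 0.37, error 0.29). Of the 500 measured genes nearest to it in signal, 180 had a ratio at least as far from 0, so a difference of this size was common at that brightness.

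Both effectors escape comparison. Bak1, whose protein sits in the outer mitochondrial membrane, gave 37.0 and 28.3 on its brighter probe set and 7.90 and 1.70 on the other, all below the floor. Bak1 therefore has no fold here, and no statement on BAX is possible. With the lower floor of 19.3 (25th percentile) the brighter Bak1 probe set is measured, 1.31-fold lower in the knockout (log2 -0.39).

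Bcl2l11 had the ratio farthest from 0 of the measured genes. BIM, its product, binds all of the anti-apoptotic proteins and can activate BAX and BAK1 directly. On the brightest of its 5 probe sets the signal was 157.4 in wild-type and 261.2 in knockout islets, 1.66-fold higher. This is a log2 ratio of 0.73 against an error of 0.28, or 2.60 times the error. Of the 500 measured genes nearest in signal, 15 were as far from 0, and 98.0% of all measured genes had a lower ratio. The second measured probe set was level, at 83.7 and 85.1, a log2 ratio of 0.02. The 2 readings of the gene thus lie 0.71 apart, a gap reached by 134 of 2599 genes (5.16%) between their brightest 2 measured probe sets. The other 3 Bcl2l11 probe sets were below the floor, between 19.7 and 22.2 in wild-type and between 14.8 and 36.3 in knockout islets. The sources used here do not say which BIM splice forms each probe set detects. Leukocyte markers were higher in the same library (17 of 17 measured above 0, as given above), and their part in the Bcl2l11 ratio was not tested.

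The region upstream of the first Bcl2l11 start site is shown because FOXO transcription factors are known to act on this gene. It holds 1 match to the FOXO core TGTTTAC (searched on both strands, read here as GTAAACA and printed in capitals), beginning 227 bases before the start. The window of the second start site holds no match to this core. The core occurs in 3.17% of 32851 promoter windows of 250 bases. It is one of several elements searched in the promoters of all members, so nothing is read from that share. The element TGATGNAA, bound by ATF4 and CHOP with C/EBP partners, was not found in the windows of either start site and occurs in 3.45% of all windows. These matches describe the letters only. The sequence is from RefSeq, mouse build GRCm38.p6, chr2:128125788-128126037, plus strand.
Bcl2l11: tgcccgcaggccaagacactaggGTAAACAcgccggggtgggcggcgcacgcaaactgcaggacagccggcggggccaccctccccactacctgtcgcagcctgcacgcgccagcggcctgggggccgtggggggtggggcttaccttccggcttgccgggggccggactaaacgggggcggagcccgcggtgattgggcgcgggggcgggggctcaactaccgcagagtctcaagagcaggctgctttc

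The other BH3-only genes were closer to level. Bad, whose product is held inactive by phosphorylation and 14-3-3 binding, gave 194.8 and 222.2 on 1 probe set and 158.5 and 186.0 on the other. Their log2 ratios of 0.19 and 0.23 had the same direction and were smaller than the error of 0.28. Bid, which is cut by caspase-8 and links death receptors to mitochondria, was the most level gene of the family at 102.5 and 101.7 (log2 -0.01). Its second probe set was below the floor, at 4.70 and 13.8.

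**Figure D2:**
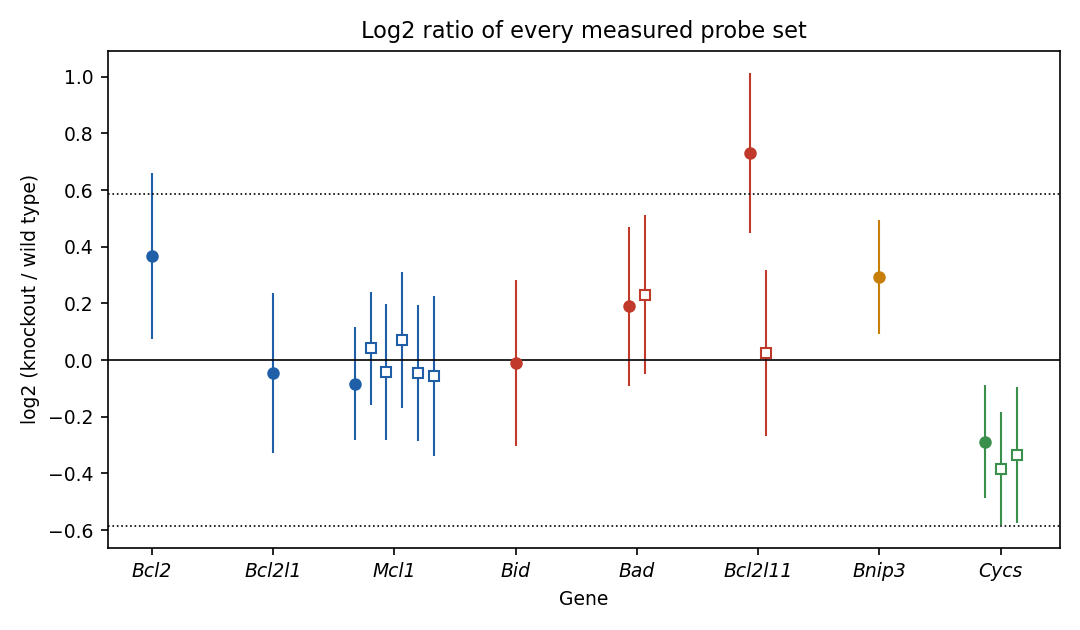
Log2 ratio of knockout over wild type for each of the 17 measured probe sets; filled circles are the brightest probe set of a gene, open squares the others, and bars are 1 SD between probe sets of a gene at that brightness. Dotted lines mark 1.5-fold, which only the brightest Bcl2l11 probe set passes (0.73), while its second lies at 0.02.

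Set side by side, the anti-apoptotic genes had a median log2 ratio of -0.04 (3 of 3 measured) and the pro-apoptotic ones of 0.19 (3 of 5 measured, namely Bid, Bad and Bcl2l11). The medians, which are the ratios of Bcl2l1 and Bad, differed by -0.23. The means, 0.08 and 0.30, differed by -0.22, with an error of 0.22 from probe set disagreement, so the difference was no larger than its error. Both differences also depend on Bcl2l11, that of the means on the size of its ratio and that of the medians on its lying above Bad. With the second measured probe set of that gene in place of the brightest, a choice made after seeing the data, the medians differed by -0.07 and the means by 0.01. With the lower floor, which brings in Bak1, the pro-apoptotic median was 0.09 and the difference of medians -0.13. The ranges of both groups overlapped, at -0.08 to 0.37 and -0.01 to 0.73. Genes are not replicates, and the 2 effectors are absent from the comparison.

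Bnip3 encodes an outer membrane protein with a BH3-like region that marks mitochondria for removal by autophagy, and hypoxia is known to induce it. Its single probe set gave 486.8 (wild type) and 596.5 (knockout), 1.23-fold higher, a log2 ratio of 0.29 against an error of 0.20. Of the 500 genes nearest in signal, 116 were as far from 0. Of the hypoxia genes, 4 of 9 measured were above 0 and 5 below, with a median of -0.02 (-0.10 with Egln3 at its bound), and the part of hypoxia in the Bnip3 ratio was not tested. Ndrg1, a bright member, had a log2 ratio of 0.26, and the glycolytic enzyme gene Pgk1 was 1.58-fold lower (1612 to 1018), although its other probe sets gave -0.31 and 0.30. Over 8 measured mitophagy genes the median was 0.02, and none was 1.5-fold apart on its brightest probe set. Becn1 had -0.48 there and reached -0.63 on another. The autophagy receptor gene Sqstm1 had a ratio of 0.18 and Gabarapl1, an ATG8 family gene, of 0.43.

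The Bnip3 promoter is shown for its hypoxia-type element. The core ACGTG, to which hypoxia-inducible factors bind, was found on both strands of 1 palindrome, CACGTG, which is also an E-box and begins 108 bases before the start (capitals). ACGTG occurs on either strand in 16.6% of all windows, so its presence is not unusual. The sequence is from RefSeq, GRCm38.p6, chr7:138909507-138909756, minus strand.
Bnip3: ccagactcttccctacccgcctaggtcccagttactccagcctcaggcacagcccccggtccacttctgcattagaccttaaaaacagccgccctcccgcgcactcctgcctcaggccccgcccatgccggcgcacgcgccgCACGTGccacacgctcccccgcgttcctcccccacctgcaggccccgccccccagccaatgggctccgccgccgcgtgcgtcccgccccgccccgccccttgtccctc

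Among the genes taken by symbol at the outset, Cycs was the only one with several probe sets that all pointed away from equality by more than their error. Cytochrome c carries electrons between complexes III and IV of the respiratory chain and, once released, assembles the apoptosome. The mouse genome also holds Cycs pseudogenes and a testis form, and cross-hybridisation was not tested. The 3 probe sets gave 1358 and 1112, 967.1 and 741.7, and 436.4 and 345.8 in the wild-type and knockout library. The knockout signal was the lower one each time, by 1.22-fold, 1.30-fold and 1.26-fold. Their log2 ratios of -0.29, -0.38 and -0.34 had a mean of -0.34 (SD 0.05), against an error of 0.20 to 0.24 for a single probe set. Of the 500 genes nearest in signal to the brightest probe set, 113 had a ratio as far from 0. As a description, with the limit and the direction set from the Cycs values themselves, 11 of 781 genes with at least 3 measured probe sets (1.41%) had every ratio at or below -0.25. Cycs had to be among them, and nothing is read from that share.

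Genes whose products handle or meet cytochrome c were mostly on the same side. Of 12 measured partners in complexes III and IV and heme attachment, 9 were below 0, with a median of -0.10 and none at 1.5-fold. Some of those 9 had another measured probe set above 0. Among all measured genes 45.1% were below 0, a share not matched to the brightness of these mostly bright partners. Ratios of bright genes also depended on the scaling, as Cycs had -0.20 with quantile normalization. The complex IV subunit genes Cox7a2 and Cox6a1, the brightest, had ratios of -0.14 and -0.06. Hccs, the enzyme that attaches heme to cytochrome c and a gene named after its values were seen, had -0.37 (194.8 to 151.0) and -0.48 on its second probe set. Channels and import receptors of the mitochondrial membranes had a median of -0.01 over 10 genes, 5 on either side of 0. Among them Slc25a5, an ADP/ATP carrier gene, had 0.24, with its other 7 measured probe sets from 0.22 to 0.45. Its relative Slc25a4 had -0.09 (-0.01 and 0.18 on its other 2 probe sets). Vdac1, given because its probe sets disagreed, had -0.55 on the brightest, and its others ranged from -0.76 to 0.36. Mitochondrial fusion and fission genes had a median of 0.02 over 9 measured genes, with Fis1 at 0.24 and Mff at 0.16. The other Mff probe set went the opposite way, at -0.46. None of the genes in either list was 1.5-fold apart on its brightest probe set.

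The Cycs promoter is shown because CREB and NRF1 are known regulators of cytochrome c genes in rodents. It holds the full cyclic AMP response element TGACGTCA (capitals), beginning 169 bases before the start. That element occurs in 1.55% of all windows. It is one of several elements searched in the promoters of all members, so nothing is read from that share. The NRF1 consensus, searched by its full letters on both strands, had no exact match in this window. The printed sequence does hold a close but inexact match, which such a search does not count. The lack of an exact match is therefore not read as the lack of an NRF1 site, and binding was not tested. The sequence is from RefSeq, GRCm38.p6, chr6:50566570-50566819, minus strand.
Cycs: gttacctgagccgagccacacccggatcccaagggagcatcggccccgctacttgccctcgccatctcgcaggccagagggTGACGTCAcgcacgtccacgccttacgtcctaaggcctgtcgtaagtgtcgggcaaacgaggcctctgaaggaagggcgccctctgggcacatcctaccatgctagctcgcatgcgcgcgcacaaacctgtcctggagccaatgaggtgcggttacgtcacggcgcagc

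**Figure D3:**
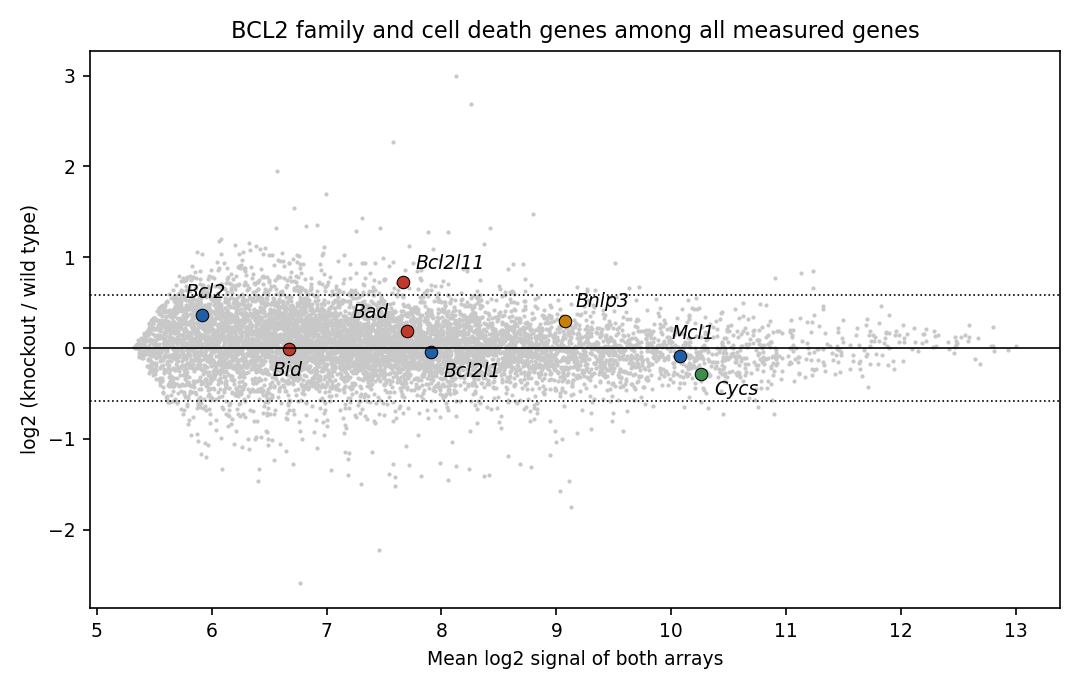
Log2 ratio against mean log2 signal for the 8134 measured genes (grey) with the 8 measured BCL2 family and cell death genes in colour; dotted lines mark 1.5-fold. All but Bcl2l11 lie inside the dotted lines, Cycs and Mcl1 among the brighter genes and Bcl2 near the floor.

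Most further measured members of the BCL2 family were also within 1.5-fold. Of 8 other pro-apoptotic genes, 6 were measured, 5 of them above 0, with a median of 0.12. Bcl2l14, dim at 48.0 and 81.6 (1.70-fold), was the 1 gene at least 1.5-fold higher. Among all measured genes 54.9% were above 0 and 4.19% at least 1.5-fold higher. With so few genes, the counts are not read as a shift of the group. The brightest were Bok, an effector-like gene, at 0.03 and Bcl2l13 at 0.04. Bbc3 (PUMA) and Bik, both BH3-only and named after their values were seen, had ratios of 0.34 and 0.20. Hrk, also BH3-only and named after its value was seen, had -0.05. Pmaip1 (NOXA) and Bmf were at the floor on both arrays. Of the other anti-apoptotic genes, Bcl2l2 (BCL-w) was measured, at 299.3 and 269.5 (log2 -0.15), and Bcl2l10 was at the floor. Bcl2a1a, Bcl2a1b and Bcl2a1d had no probe set named for one of them alone and were not analysed here.

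Downstream of the mitochondrion, most measured genes were within 1.5-fold. Among 4 other released proteins, Htra2, a serine protease, went from 72.7 to 111.1 on its brightest probe set (1.53-fold higher) and had a log2 ratio of 0.14 on another. Diablo (SMAC), which blocks inhibitor of apoptosis proteins, was level at 318.1 and 317.3. Endog, a nuclease, had -0.03, and 0.37 on its other probe set. Apoptosome and caspase genes had a median of 0.24 over 6 measured genes, with Casp2 at 0.17 and Casp6 at 0.33, and 0.24 again with 2 genes at their bounds. Of the 6 measured, 4 were above 0 and 2 below. Those 2, named after their values were seen, were Apaf1 at -0.16 and Parp1 at -0.17 (-0.04 and 0.56 on its other probe sets). Casp9, the initiator caspase of this route, was at the floor in wild-type islets (39.7) and at 68.4 in knockout islets, at least 1.72-fold higher. Dffb, the other gene at its bound, went the opposite way, from 54.4 to the floor (37.9), at least 1.37-fold lower. Both readings were dim.

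Of the inhibitors of apoptosis, Birc5 (survivin) differed most. Its signal was 316.5 (wild type) and 118.6 (knockout), 2.67-fold lower. Birc5 is also a subunit of the chromosomal passenger complex of mitosis, and the 13 measured markers of G2 and mitosis were all lower in the same library. Xiap, the direct caspase inhibitor, was level at 302.8 and 305.2 (log2 0.01). The list had a median of 0.09 over 4 measured genes, or 0.08 with Birc3 at its bound. Over 7 measured death receptor genes the median was 0.06 and none was 1.5-fold apart, among them the TNF receptor gene Tnfrsf1a at 0.13 and Casp8 at 0.06. Fas, Fasl and Tnfrsf10b were at the floor on both arrays.

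Upstream signals were examined as 3 further lists. In the PERK to CHOP axis, 6 of 8 measured genes were below 0, with a median of -0.34, Eif2ak3 itself included. Ddit3 encodes CHOP, a transcription factor able to induce Bcl2l11 in stressed cells. Its signal went from 108.1 to 169.7 (1.57-fold higher) on its 1 measured probe set. Apart from Eif2ak3, the other genes of this list had ratios between -0.49 and 0.06. The part of Ddit3 in the Bcl2l11 ratio was not tested. The p53 genes had a median of 0.12 over 10 measured genes, 8 above 0 and none at 1.5-fold, with Ccng1 at 0.06 and Cdkn1a at -0.09. The other 2 Ccng1 probe sets gave -0.24 and -0.03. Kinases, phosphatases and 14-3-3 proteins that act on BAD had a median of 0.04 over 12 genes, again with none at 1.5-fold. The 14-3-3 genes Ywhaq and Ywhab had ratios of -0.15 and 0.01, with other Ywhaq probe sets from -0.35 to 0.31.

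**Figure D4:**
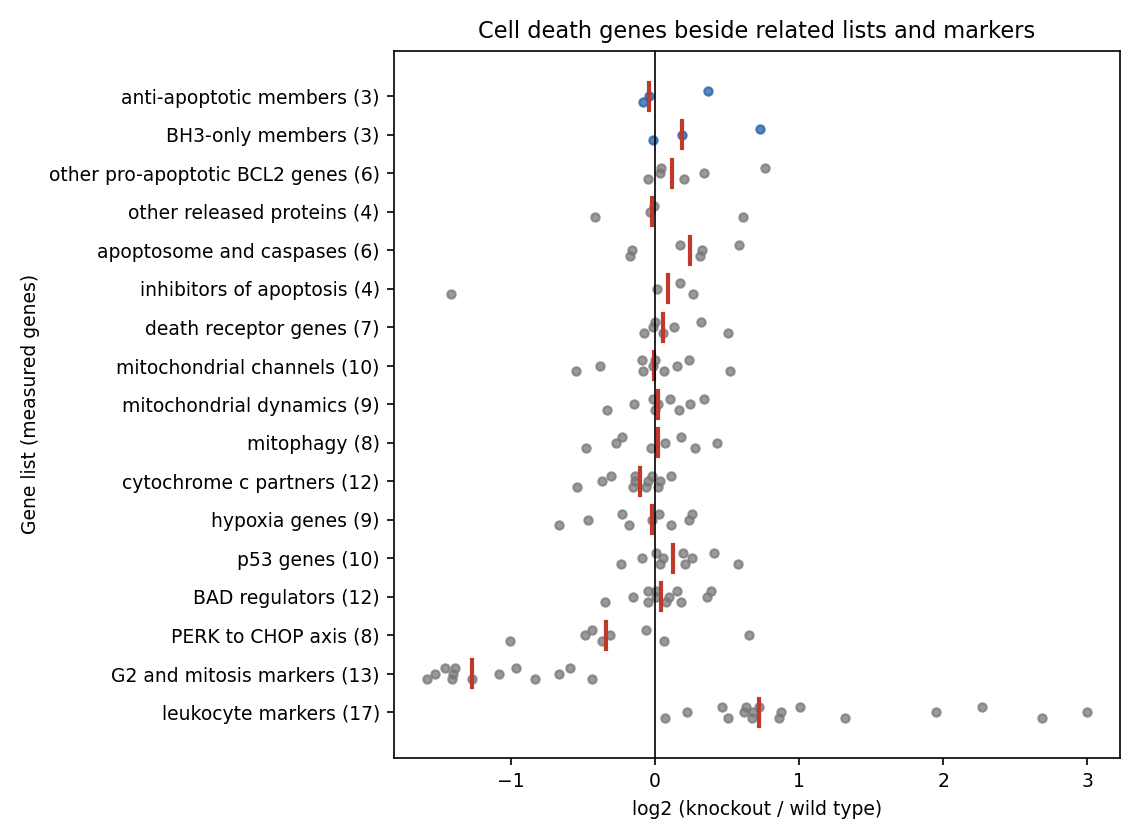
Log2 ratio of each measured gene (points, spread vertically for legibility) and the median (red bar) for the BCL2 family genes, related lists and markers, with the number measured in brackets. Of the lists plotted, the PERK to CHOP axis has a median of -0.34, the other family and related lists lie from -0.10 to 0.24, and G2 and mitosis markers centre at -1.27 and leukocyte markers at 0.72.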

How the data were processed

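Islet RNA of 2 genotypes, 1 array each, was compared. The values deposited by the authors are linear signal intensities of probe sets; the submitters' processing notes name GCOS 1.02, and no label or header gives background correction or detection calls. Of 22690 probe sets, 20393 had 1 gene symbol (20364 matched the RefSeq table of GRCm38.p6), 691 several and 1606 none. The knockout array was scaled to the wild-type 2% trimmed mean (150.1, a factor of 1.00), signals were floored at the 40th percentile, and log2 ratios were taken with Python 3.11.15, numpy 2.4.6, pandas 2.3.3 and statsmodels 0.14.6. The error of a ratio is the SD of the difference between the 2 brightest measured probe sets of 2599 genes, divided by the square root of 2, in 4 signal classes. The number of arrays limits the precision. The procedure was tested on simulated data with planted differences larger than any ratio of a family gene, so sizes like those reported were not covered. The members and lists were chosen with earlier results of these data known. Named were all members, Eif2ak3 and, per list, at most 4 genes 1.5-fold or more higher and 4 lower. The 2 brightest were added where fewer than 2 qualified. Of the cell marker lists, up to 3 genes were named, with Ins2, Gcg, Sst and Pyy besides. Outside this rule, some genes at the floor or a bound were named. So were genes marked as named after their values were seen, and genes given for probe sets that disagreed. Likeness of patterns between genes was not used with 2 arrays. Alternatives were other scalings, floors, a pseudocount of 16, other probe set choices and other groupings.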

Additional observations from a re-analysis of the deposited data

How the results depend on the processing

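No paired analysis was possible because each genotype has 1 array. The count of family genes at least 1.5-fold apart was 1 as reported and under 8 other settings; it was 0 with the median of all measured probe sets and 0 with the second measured probe set of Bcl2l11, a setting added after seeing the data, both because Bcl2l11 then counts its level probe set (log2 0.38 and 0.02). The anti-apoptotic minus pro-apoptotic difference of medians stayed below 0 in all 12 alternatives, from -0.29 to -0.07. Constant rescaling (deposited scale, median centring) cannot change that difference. As reported, the difference is the ratio of Bcl2l1 minus that of Bad, the middle genes of their groups. Bad is the middle gene because Bcl2l11 lies above it. Most other settings keep the brightest Bcl2l11 probe set, so their agreement is partly fixed in advance. The 2 group medians moved by less than the probe set error. Cycs lay between -0.34 and -0.20 and Bnip3 between 0.26 and 0.33. Bcl2 was under the floor at the 60th percentile and gives no ratio there. Among all genes, those at least 1.5-fold higher and lower, 341 and 240, became 579 and 359 with a floor at the 25th percentile and 135 and 131 at the 60th. The share of higher calls was 58.7%, and 47.3% with quantile normalization, 46.5% with loess and 50.8% with the 60th percentile floor. Effects smaller than the probe set error of 0.20 to 0.29 cannot be seen here, and a single array per genotype gives no spread between animals.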

Other observations

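The genes that, like Cycs, had at least 3 measured probe sets all at or below a log2 ratio of -0.25 were picked after their values were seen and are given as values. Rpn1, a subunit of the oligosaccharyltransferase, lay between -0.46 and -0.31 on 5 probe sets, and Ssr1, of the translocon-associated complex, between -0.59 and -0.26 on 3. Atp2a2, the ER calcium pump SERCA2, lay between -0.65 and -0.33 on 4 probe sets, and Reep5, an ER-shaping protein, between -0.39 and -0.31 on 3. Cyb5b, a cytochrome b5 of the outer mitochondrial membrane, lay between -0.69 and -0.36 on 3. The others were Atp6ap2, Papss2, Pi4k2b, Rrm2 and Ttc13.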
